A study of Mus musculus with 24 samples.

Results

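The experiment described here compared mouse myoblasts in culture that received an adenovirus coding for Cre recombinase (AdCRE) with myoblasts that received an adenovirus coding for green fluorescent protein (AdGFP). It comprises 8 of the 24 samples of the series, 4 per virus, and was chosen by these virus labels alone. Libraries of the 2 viruses that carry the same replicate number, 1 to 4, were compared as a pair. All 8 samples are primary myoblasts grown from satellite cells of resting, uninjured muscle of C57BL/6 mice aged 2 to 4 months. Every sample, the AdGFP controls included, has the genotype Chd4fl/fl, in which both Chd4 alleles carry the sites that Cre acts on. The cells were kept proliferating in HAM's F10 medium with serum and FGF on collagen, and the labels give the virus treatment as 72 hours. The other samples are RNA-seq (8) and ATAC-seq (8) of satellite cells sorted 3 days after muscle injury from Chd4dPax7ER and Chd4fl/fl mice. The sorted RNA-seq samples are used only in the last comparison, and the ATAC-seq samples were not analysed here.

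Chd4 encodes an ATPase of the NuRD complex, which joins nucleosome remodelling to histone deacetylation and is known for holding genes of other lineages silent. Satellite cells are the stem cells of skeletal muscle. In culture they proliferate as myoblasts that express Pax7 and Myod1, and on differentiation they leave the cell cycle, express Myog and sarcomere genes, and fuse. Only the AdCRE cells received Cre, so effects of Cre itself and of Chd4 loss cannot be told apart. The labels do not say how many animals or cultures the samples came from, or what share of cells took up virus.

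Expression was given as RPKM, reads scaled to gene length and library size, so levels of different genes are compared per length. A gene was tested when it reached 0.5 RPKM in at least 4 of the 8 libraries, which left 13567 of 46078 genes. Of these, 409 genes lay just inside that limit with exactly 4 libraries at 0.5 RPKM, and 393 lay just outside with 3. Differences are given as AdCRE minus AdGFP on the log2(RPKM + 0.5) scale, averaged over the 4 pairs by limma with the replicate number as a block. This scale understates the change of low genes. SE is limma's moderated standard error, the adjusted p is the Benjamini-Hochberg value over all 13567 genes, and a gene is said to have risen or fallen when it is under 0.05. Since the labels do not call the samples separate animals or cultures, the p-values reflect only how these samples spread, which may be technical.

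The cells carried the markers of myoblasts in every library. Myod1, which encodes the factor that sets myogenic identity, lay between 591 and 906 RPKM, and Pax7 between 24.1 and 37.1 RPKM. Des, the muscle intermediate filament, lay between 209 and 372 RPKM. Ptprc, the pan-leukocyte marker, did not exceed 0.00427 RPKM in any library.

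Libraries with the same number resembled each other more than libraries with the same virus. Across genes, deviations from the group mean correlated at 0.711 to 0.856 between same-numbered libraries and at -0.524 to 0.438 between others. Taking deviations from the group mean pulls the correlations between others downward. The replicate number held 72.7% of the sum of squares over all genes tested and the virus 19.4%. The replicate number has 4 levels and the virus 2, and these shares are not adjusted for that. Xist, the RNA of the inactive X chromosome, was at 78.8, 0.00943, 0.0219 and 96.5 RPKM in AdGFP replicates 1 to 4 and at 86.6, 0.00437, 0.0157 and 87.6 RPKM in AdCRE. Ddx3y, a gene of the Y chromosome, was at 0.0297, 24.9, 20.9 and 0.0546 RPKM in AdGFP and 0.0195, 26, 23.7 and 0.0316 RPKM in AdCRE. Replicates 1 and 4 were thus high for Xist and replicates 2 and 3 for Ddx3y, with both viruses alike. Casq1, the calcium store protein of muscle, followed the same division, at 1.23, 43.7, 53.2 and 1.9 RPKM in AdGFP and 2.4, 48.3, 59.2 and 2.76 RPKM in AdCRE, so replicates 2 and 3 held far more of this differentiation transcript with either virus. Mybpc1, Eif2s3y and Rps13-ps1 were the other 3 of the 6 genes that varied most between pairs. Depth read from the steps of low values ranged from 1 to 1.64 times the shallowest library, which was AdGFP replicate 2, and AdGFP replicate 4 was the deepest. Mitochondrial transcripts held 2.90 to 6.56% of the summed RPKM.

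**Figure D1:**
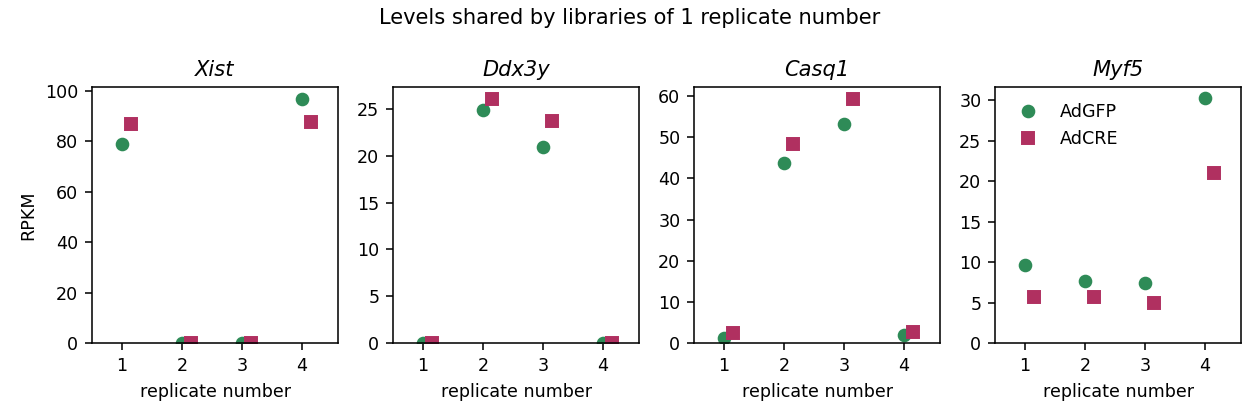
RPKM (linear axes from 0) of Xist, Ddx3y, Casq1 and Myf5 by replicate number, circles for AdGFP and squares for AdCRE, 1 point per library. Libraries with the same number lie close together, with Xist high in replicates 1 and 4, Ddx3y and Casq1 in replicates 2 and 3, and Myf5 in replicate 4.

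Chd4 itself (ENSMUSG00000063870) held 76.2, 67.8, 70.8 and 85.5 RPKM in AdGFP replicates 1 to 4 and 15.8, 23.9, 21.3 and 22.1 RPKM in AdCRE. It was lower in AdCRE in every pair, without overlap, and remained detected in every library. Against its own AdGFP partner, AdCRE held 20.7, 35.2, 30.1 and 25.9% in pairs 1 to 4, and 27.7% by the group means (log2 fold change -1.84, SE 0.11, adjusted p = 0.000164). An exact two-sided permutation test within pairs gave p = 0.125, the smallest that 16 arrangements can give. The sources used here do not say which part of the gene Cre removes, so a transcript lacking that part could still be counted.

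The paralogue Chd3, which encodes the alternative ATPase of NuRD, rose. AdGFP replicates held 13.2, 16, 16.4 and 20.2 RPKM and AdCRE replicates 25.1, 27.1, 28.3 and 33.8 RPKM (log2 fold change 0.78, SE 0.04, adjusted p = 0.00016). All AdCRE libraries lay above all AdGFP libraries. Chd5, the neural and testis paralogue, stayed under the limit for testing, at 0.0645 to 0.0983 RPKM in AdGFP and 0.338 to 0.888 RPKM in AdCRE, again without overlap. Of the 14 tested NuRD subunits and CHD paralogues, Chd3, Mta3 (0.37), Gatad2a (0.23) and Gatad2b (0.17) rose, while Chd4 and Mta1 (-0.25) fell. These are 28.6% and 14.3% of the list, beside 17.5% and 18.7% of all genes. The Gatad2b call was lost without replicate 2, 3 or 4 (adjusted p up to 0.106) and under TPM scaling. The list median was 0.01 (all genes -0.01), and this sign turned under TPM scaling and without replicate 2.

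Over all genes tested, 2371 rose (17.5%) and 2536 fell (18.7%), 36.2% in all. The list counts that follow are read beside these shares. Most changes were small: 125 genes (0.921%) rose and 16 (0.118%) fell by at least 2-fold. The difference had the same sign in all 4 pairs for 3409 genes upward (25.1%) and 3677 genes downward (27.1%), and for 1358 genes (10.0%) the 2 groups of libraries did not overlap at all. Fitted without the pairing, 89 genes (0.656%) passed, 70 higher and 19 lower, because the spread between replicate numbers then counts as error. With each library rescaled to the same sum (TPM), 41.5% of the calls were upward in place of 48.3%. Through AdCRE alone 42 genes passed the level limit. Such genes had to differ without overlap to be tested, so the values of those named are a description. Those named are also counted among the rises of their lists. In bulk RNA, fewer cells of a type and less RNA per cell cannot be told apart, here and in each result that follows.

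In the cell cycle, genes of DNA replication and mitosis fell together. Replication genes are switched on by E2F factors as cells enter S phase, and many mitotic genes carry a CHR element, the letters TTTGAA, through which the DREAM and MMB complexes act. Of the 40 replication genes tested 39 fell and none rose, with a list median of -0.67 against -0.01 for all genes. The exception was Fen1, a flap nuclease (-0.15, adjusted p = 0.433). The mitotic list fell in full, 35 of 35, with a median of -0.71. Its medians in pairs 1 to 4 were -1.06, -0.61, -0.58 and -0.67, largest in replicate 1 and of the same sign in each pair. None of these genes passed without the pairing.

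Mki67, the proliferation marker Ki-67, held 19.9, 30.2, 40.2 and 49.2 RPKM in AdGFP replicates 1 to 4 and 7.13, 16.5, 23.5 and 26.4 RPKM in AdCRE (log2 fold change -0.98, SE 0.10, adjusted p = 0.000845). The groups overlapped, since AdCRE replicates 3 and 4 exceeded AdGFP replicate 1, but AdCRE was the lower library of every pair. Ccna2, cyclin A2 of S phase and mitosis, held 18.4, 27.3, 30.7 and 39.5 RPKM against 6.86, 15.4, 17.9 and 22.5 RPKM (log2 fold change -0.93, SE 0.10, adjusted p = 0.00094). Spc24, a subunit of the NDC80 kinetochore complex, held 12.9, 25.3, 25.8 and 32.1 RPKM against 4.13, 13, 14.8 and 17.9 RPKM (log2 fold change -1.02, SE 0.12, adjusted p = 0.00119). Both repeated that order, with replicate 1 lowest and replicate 4 highest under either virus. Cdc20, the activator of the anaphase-promoting complex, fell by 0.67 and Incenp, of the chromosomal passenger complex, by 0.78 on the log2 scale.

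Pcna, the sliding clamp of DNA polymerases, held 47.9, 54.5, 60 and 71.2 RPKM in AdGFP and 26.1, 35.3, 39.6 and 43.7 RPKM in AdCRE (log2 fold change -0.69, SE 0.05, adjusted p = 0.000349). Mcm4, a subunit of the replicative helicase, held 51.3, 52.6, 58.9 and 71.3 RPKM against 32.6, 36.6, 38.7 and 46.9 RPKM (log2 fold change -0.59, SE 0.04, adjusted p = 0.000232). Neither gene overlapped between the groups. Cdc45, a partner of that helicase, changed by -0.81, Chaf1b, a histone chaperone subunit, by -0.89 and Clspn, which relays the replication checkpoint, by -1.03. Shmt1, which feeds one-carbon units into thymidylate synthesis, fell as well (-0.97), as did the mitotic kinesin Kif15 (-0.93). Nup205, of the nuclear pore, had one of the most even falls, with differences of -0.60, -0.59, -0.59 and -0.57 in the 4 pairs.

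The stretches before the start sites of 2 mitotic genes show the CHR letters. They were read from RefSeq promoters on build GRCm38.p6, run 5′ to 3′ on the gene's strand up to the base before the start, and have matches to TTTGAA or its reverse complement TTCAAA in capitals.
Mki67: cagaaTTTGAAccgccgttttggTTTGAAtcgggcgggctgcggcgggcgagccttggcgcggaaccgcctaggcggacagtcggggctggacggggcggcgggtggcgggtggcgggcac
Top2a: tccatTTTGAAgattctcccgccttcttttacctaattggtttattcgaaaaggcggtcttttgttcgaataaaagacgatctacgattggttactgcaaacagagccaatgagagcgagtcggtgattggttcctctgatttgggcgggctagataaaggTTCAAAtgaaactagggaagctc
The first lies at chr7:135716380-135716500, minus strand, with matches that begin 116 and 98 bases before the start. Top2a, which encodes topoisomerase II alpha (-0.78), lies at chr11:99024190-99024373, minus strand, with matches 179 and 23 bases before it. In windows from 250 bases before to 50 bases after the start, 22 of the 28 mitotic genes with an entry (78.6%) held TTTGAA on either strand, against 20.2% of all 27025 genes with an entry. Several of the 22, among them Plk1, Aurka and Cenpa, held it only after the start. For the replication list, Cdc6 (-0.99), which loads the helicase, and the helicase subunits Mcm5 (-0.82) and Mcm6 (-0.74) are shown for their E2F letters, TTTCCCGC or TTTGGCGC on either strand, in capitals.
Cdc6: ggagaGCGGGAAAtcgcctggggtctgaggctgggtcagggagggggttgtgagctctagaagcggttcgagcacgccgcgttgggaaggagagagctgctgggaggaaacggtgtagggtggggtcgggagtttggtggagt
Mcm5: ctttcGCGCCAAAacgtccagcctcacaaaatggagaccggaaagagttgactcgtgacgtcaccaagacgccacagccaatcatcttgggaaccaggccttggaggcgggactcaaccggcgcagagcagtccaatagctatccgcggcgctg
Mcm6: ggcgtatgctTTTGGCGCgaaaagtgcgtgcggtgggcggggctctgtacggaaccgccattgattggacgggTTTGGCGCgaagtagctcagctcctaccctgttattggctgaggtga
These lie at chr11:98908008-98908150, plus strand, at chr8:75109355-75109508, plus strand and at chr1:128359706-128359825, minus strand. Across all 27025 genes with an entry, 1.80% of windows held either letters. A list's share was compared only where at least 80% of the list has an entry, as for the mitotic list. With entries for 30 of its 40 genes (75.0%) the replication list falls short, so that check is void. A match describes these letters and is not a measured binding site.

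Among the regulators of the G1 phase, 5 of 23 rose (21.7%, all genes 17.5%) and 10 fell (43.5%, all genes 18.7%). Cdkn1a, the CDK inhibitor p21, held 306, 352, 328 and 270.1 RPKM in AdGFP and 427, 482, 378 and 411 RPKM in AdCRE (log2 fold change 0.44, SE 0.07, adjusted p = 0.00345). Every AdCRE library was above every AdGFP library. Cdkn1c, the imprinted inhibitor p57, rose more (0.93), and Cdkn2b (0.43), Rb1 (0.32) and Ccnd1, cyclin D1 (0.17), rose too. The Ccnd1 call was lost without replicate 1, 2 or 4, with an adjusted p of up to 0.0786. The members that fell included the pocket protein p107, Rbl1 (-0.77), the E2F factors E2f7 (-0.79) and E2f1 (-0.33), and cyclin E1, Ccne1 (-0.51).

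Of the genes of the p53 pathway, 13 of 28 rose (46.4%, all genes 17.5%), and the median was 0.16. Gdf15, a secreted stress cytokine, rose most, from 9.24, 7.96, 7.44 and 3.3 RPKM to 29.3, 18.2, 16.1 and 14 RPKM (log2 fold change 1.44, SE 0.14, adjusted p = 0.000671). Trp53inp1, a p53-induced nuclear protein, rose from 34.9, 21.6, 18.7 and 24.9 RPKM to 52.4, 36.3, 39.2 and 52.3 RPKM (log2 fold change 0.86, SE 0.08, adjusted p = 0.000704). Neither gene's groups overlapped. Plk3 (0.69), Perp (0.80) and Mdm2, the ubiquitin ligase of p53 (0.29), also rose, the last with a call lost without replicate 3 or 4 (adjusted p up to 0.07). Trp53 itself was the only member that fell (-0.27). No call was made for 14 of the 28 genes.

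**Figure D2:**
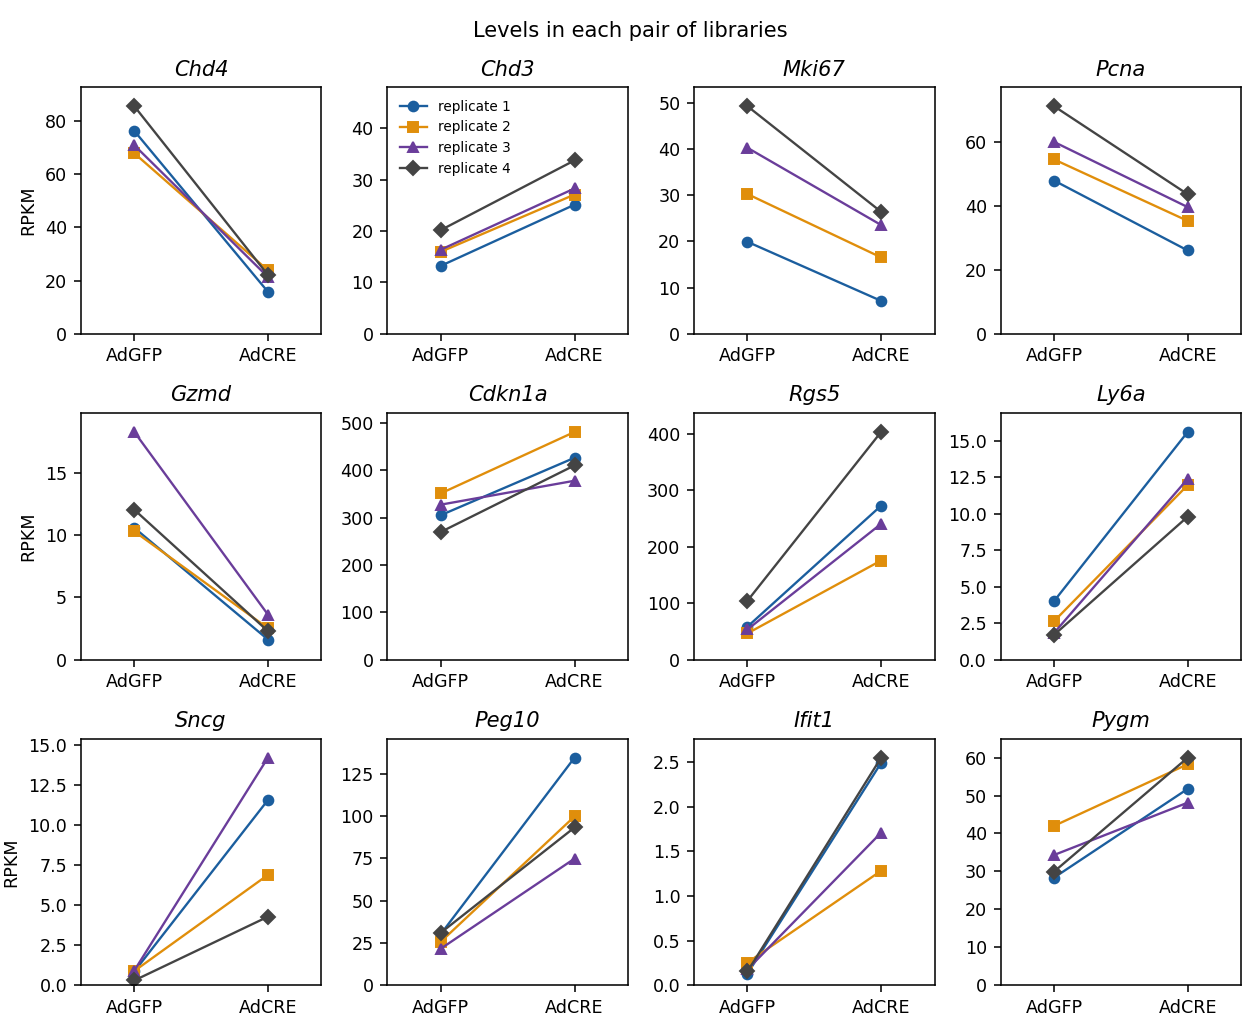
RPKM (linear axes from 0, a scale per gene) of 12 genes in AdGFP and AdCRE, with a line joining the libraries of each replicate number. Chd4, Mki67, Pcna and Gzmd fall along all 4 lines and the other 8 genes rise along all 4.

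Of 19 genes of Polycomb and DNA methylation, 4 fell (21.1%), a share near the 18.7% of all genes. They were Uhrf1 (-0.74) and Dnmt1 (-0.67), which copy DNA methylation onto new strands, Ezh2, the methyltransferase of Polycomb complex 2 (-0.73), and Bmi1 (-0.24). None rose, and the median was -0.08.

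Genes of ribosome production fell, while few ribosomal protein genes were called and their median stayed near that of all genes. Of the nucleolar and ribosome biogenesis genes 22 of 26 fell and none rose (median -0.27), and 25 were lower in all 4 pairs. Dkc1, the pseudouridine synthase of snoRNPs, held 22.7, 26.6, 30.6 and 36.7 RPKM in AdGFP and 17.1, 21, 22.4 and 25.3 RPKM in AdCRE (log2 fold change -0.43, SE 0.04, adjusted p = 0.000829). Nop56 (-0.37), a core snoRNP protein, and Nolc1 (-0.33) fell less. Myc, a driver of this programme, fell by 0.22, a call lost without replicate 1, 2 or 4 (adjusted p up to 0.0702). Of the cytosolic ribosomal protein genes 4 of 43 rose (9.30%, all genes 17.5%) and none fell. Their median was 0.03, and its sign turned under quantile normalization and TPM scaling without mitochondrial genes. In the cholesterol and fatty acid list 13 of 27 fell and 1, Scd2, rose, with a median of -0.26 and pair medians of -0.48, -0.10, -0.14 and -0.19, the largest in replicate 1. The Scd2 call was lost without replicate 2, 3 or 4 (adjusted p up to 0.168) and under several other settings. Dhcr7 (-0.42), Acaca (-0.46) and Fasn (-0.28), enzymes of sterol and fatty acid synthesis, were among those that fell.

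The differentiation genes of muscle rose, without exception among the calls. Of the myogenic factors and fusion genes 16 of 19 rose (median 0.32), of the sarcomere genes 21 of 32 (median 0.31), and of the calcium and energy genes 16 of 21 (median 0.33). The pair medians of the sarcomere list were 0.33, 0.18, 0.16 and 0.52, the largest in replicate 4, and none of these genes passed without the pairing. Myog, the factor that starts terminal differentiation, held 208, 612, 479.6 and 320.3 RPKM in AdGFP replicates 1 to 4 and 313, 774, 549.7 and 522 RPKM in AdCRE (log2 fold change 0.46, SE 0.09, adjusted p = 0.00698). The groups overlapped widely because replicates 2 and 3 were high under both viruses. Myod1 did not pass (0.19, adjusted p = 0.104), with pair differences of 0.21, 0.25, -0.08 and 0.40. Mymk and Mymx, the 2 fusion proteins myomaker and myomerger, rose by 0.40 and 0.38.

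Pygm, muscle glycogen phosphorylase, held 28.4, 42, 34.3 and 29.9 RPKM in AdGFP and 51.8, 58.2, 48.1 and 60 RPKM in AdCRE (log2 fold change 0.70, SE 0.09, adjusted p = 0.00194). It was the one such gene among those printed here whose groups did not overlap. Tnnt1, slow troponin T, held 48.1, 180.4, 149.8 and 101 RPKM against 96.4, 251, 218 and 169 RPKM (log2 fold change 0.69, SE 0.08, adjusted p = 0.0014). Atp2a1, the fast-fibre calcium pump, held 22.8, 82.3, 52.2 and 39.7 RPKM against 40.5, 110.4, 65.1 and 71.2 RPKM (log2 fold change 0.60, SE 0.09, adjusted p = 0.00342). In each of these genes AdCRE was the higher library of every pair. Acta1, skeletal actin, held 363, 1630, 1493 and 762 RPKM against 468, 1994, 1522 and 1177 RPKM (log2 fold change 0.33, SE 0.10, adjusted p = 0.0339), a call lost without replicate 1, 2 or 4 (adjusted p up to 0.115). Casq1 rose by 0.37, lost without replicate 4 (adjusted p 0.0908) and at 0.25 without replicate 1, and Myh3, embryonic myosin, by 0.25, lost without replicate 1 or 4 (up to 0.064) and under quantile normalization and no variance trend. Without replicate 4 the Myh3 change was 0.16. Ache, acetylcholinesterase of the synapse, rose by 0.81 and Agrn, the synapse organiser agrin, by 0.46. Of the receptor and synapse list 5 of 10 rose and 1, Lrp4, fell (-0.23). The Lrp4 call was lost without replicate 1, 2 or 3 (adjusted p up to 0.0794), and without replicate 1 the change was -0.14.

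Of 17 identity genes of satellite cells 4 rose (23.5%) and 3 fell (17.6%), near the shares of all genes, 17.5% and 18.7%, with a median of 0.01 whose sign turned under TPM scaling. Pax7 did not pass (-0.14, adjusted p = 0.0807) in this fit and passed under TPM scaling. Myf5, the early myogenic factor, fell from 9.64, 7.66, 7.42 and 30.4 RPKM to 5.67, 5.73, 4.98 and 21.1 RPKM (log2 fold change -0.54, SE 0.06, adjusted p = 0.00104). Replicate 4 was the highest with both viruses, and the groups overlapped. Met, the HGF receptor (-0.42), and Vcam1 (-0.29) fell, the latter lost without replicate 4 (adjusted p 0.0551). Mstn, myostatin (0.49), Ncam1 (0.26), Cav1 (0.28) and Megf10 (0.15) rose. The Cav1 call was lost without replicate 1, 2 or 3 (adjusted p up to 0.0899), and the Megf10 call without replicate 2, 3 or 4 (up to 0.146) and under TPM scaling, quantile normalization and no variance trend. In the Notch pathway, which keeps satellite cells undifferentiated, 6 of 13 rose and none fell (median 0.24). The receptor Notch3 held 14.9, 12, 10.5 and 28.7 RPKM in AdGFP and 27.6, 24.4, 20.4 and 61.6 RPKM in AdCRE (log2 fold change 0.97, SE 0.05, adjusted p = 0.000118). The ligand Dll1 held 21, 12.1, 10.8 and 19.6 RPKM against 36.1, 19.6, 18.9 and 36 RPKM (log2 fold change 0.77, SE 0.04, adjusted p = 0.00016). Both were highest in replicates 1 and 4, so the groups overlapped while each pair rose. The targets Hey1 (0.70), Heyl (0.72) and Hes1 (0.47) and the receptor Notch1 (0.25) were the other 4, with the Notch1 call lost without replicate 2 (adjusted p 0.059).

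**Figure D3:**
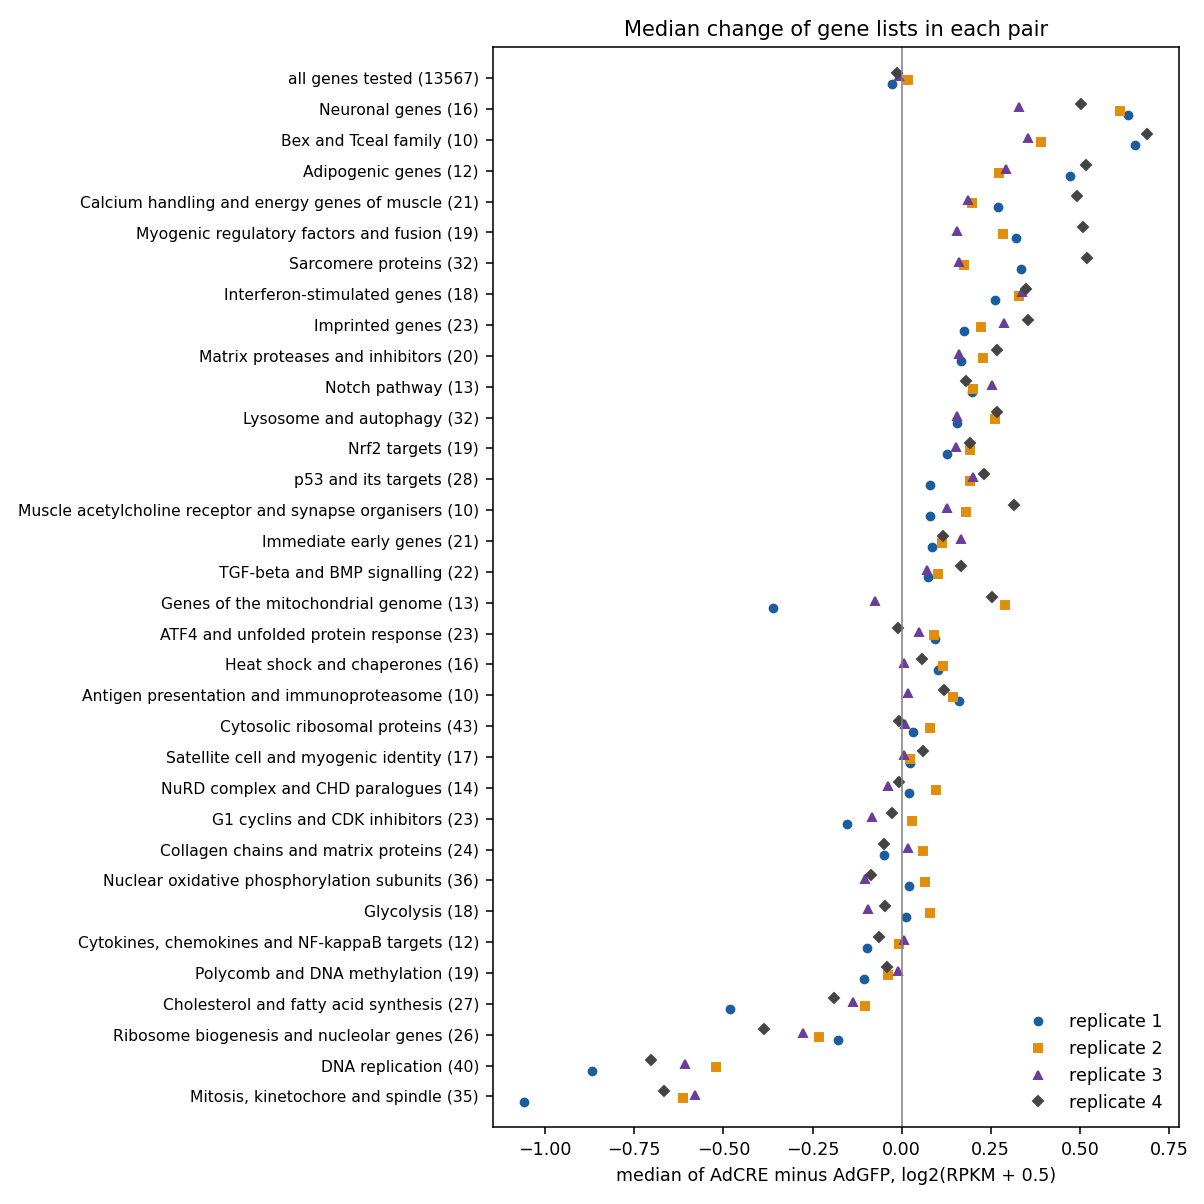
Median difference of log2(RPKM + 0.5), AdCRE minus AdGFP, of each gene list with at least 10 tested members (number in brackets) in each of the 4 pairs, with all genes tested on top. The replication, mitosis, ribosome biogenesis and cholesterol lists lie below 0 and the muscle, neuronal, Bex and Tceal lists above 0 in all 4 pairs.

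Among genes with a mean of at least 5 RPKM that were named by the size of their rise, Ly6a and Rgs5 came first. Ly6a, which encodes the surface protein SCA1 of fibro-adipogenic and haematopoietic progenitors, held 4.01, 2.63, 1.82 and 1.69 RPKM in AdGFP and 15.6, 12, 12.4 and 9.79 RPKM in AdCRE (log2 fold change 2.13, SE 0.10, adjusted p = 0.000118). Rgs5, which dampens G protein signalling and is best known from pericytes, held 58.3, 46.4, 53.4 and 104 RPKM against 273, 176, 241 and 403 RPKM (log2 fold change 2.06, SE 0.06, adjusted p = 5.03e-05). In both genes every AdCRE library lay above every AdGFP library. Thy1, a surface glycoprotein of fibroblasts and neurons, held 2.4, 7.11, 4.59 and 10.3 RPKM against 8.17, 20.1, 17.6 and 21.6 RPKM (log2 fold change 1.47, SE 0.12, adjusted p = 0.000365), with overlap. Gpnmb, a lysosomal glycoprotein, held 110.2, 4.68, 4.86 and 5.63 RPKM against 177, 22, 23.4 and 22.3 RPKM (log2 fold change 1.71, SE 0.23, adjusted p = 0.00198). Its replicate 1 libraries stood far above the rest under both viruses, and its rise was the smallest there. Mt1, metallothionein 1, rose unevenly, with differences of 1.95, 0.29, 0.67 and 3.18 in the pairs (log2 fold change 1.52, SE 0.43, adjusted p = 0.0298). Without replicate 1 or 4 that call was lost (adjusted p up to 0.0829), and without replicate 4 the change was 0.97.

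Other rises stood out for their small spread between pairs. Maged2, of the MAGE family, rose by 1.01, 0.95, 1.04 and 1.07 in the 4 pairs and Ehd3, of endosomal recycling, by 1.00, 1.07, 1.03 and 1.02. Prr9, a proline-rich epidermal protein, held 30.5, 7.5, 5.24 and 14.8 RPKM in AdGFP and 81.6, 23, 16.3 and 49.8 RPKM in AdCRE (log2 fold change 1.56, SE 0.06, adjusted p = 5.03e-05). Ndrg4, a gene of brain and heart, held 8.73, 3.46, 3.12 and 2.27 RPKM against 22.6, 10.3, 8.64 and 6.64 RPKM (log2 fold change 1.37, SE 0.05, adjusted p = 5.03e-05). The pairs set the level of both genes, which overlapped between groups, and each pair rose by almost the same factor.

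Neuronal genes rose more often than they fell, 10 of 16 against 1, with a median of 0.53. Sncg, gamma-synuclein of axons, was at 0.861, 0.892, 0.921 and 0.303 RPKM in AdGFP replicates 1 to 4 and 11.6, 6.89, 14.2 and 4.28 RPKM in AdCRE (log2 fold change 2.88, SE 0.16, adjusted p = 0.00016). Uchl1, a neuronal ubiquitin hydrolase, was at 1.66, 2.23, 6.52 and 4.53 RPKM and 8.68, 8.9, 18.3 and 11.1 RPKM (log2 fold change 1.63, SE 0.14, adjusted p = 0.000438). Tubb4a, a tubulin isotype of brain, was at 0.0867, 0.0758, 0.0705 and 0.081 RPKM and 1.38, 1.23, 1.29 and 1.46 RPKM (log2 fold change 1.67). Sncg and Uchl1 did not overlap between groups. Tubb4a passed the level limit through AdCRE alone, so its groups could not overlap. Kif1a (1.55), a kinesin that carries synaptic vesicle precursors, Map1a (1.48), a microtubule protein of neurons, Tubb3 (1.05) and Rab3a (0.88) rose as well, and Syt11 fell (-0.35). Of the 32 genes on that list 16 lay under the level limit.

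The Bex and Tceal family, a cluster of X-linked genes with brain expression, rose in 8 of 10 tested members (median 0.47). Tceal6 held 1.59, 1.4, 0.564 and 2.43 RPKM in AdGFP and 6.84, 5.37, 3 and 9.23 RPKM in AdCRE (log2 fold change 1.72, SE 0.06, adjusted p = 5.03e-05). Tceal5 held 3.21, 3.14, 2.02 and 2.65 RPKM against 7.13, 7.71, 4.87 and 6.55 RPKM (log2 fold change 1.12, SE 0.05, adjusted p = 0.000118). Both were without overlap. Bex2, at 0.299, 0.14, 0.0435 and 0.257 RPKM and 2.69, 1.04, 1.44 and 1.27 RPKM, passed the level limit through AdCRE alone. The family members are close copies, so reads may be shared between them.

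Of the imprinted genes 12 of 23 rose (52.2%, all genes 17.5%). The 3 that fell were Sgce, Snrpn and Peg12 (13.0%, all genes 18.7%). The list median was 0.26. None of the 3 falls kept its call in every set of pairs: Sgce lost it without replicate 2 (adjusted p 0.0644), Snrpn without 1, 2 or 4 (up to 0.144) and Peg12 without 1, 2 or 3 (up to 0.137). Peg10, a retrotransposon-derived gene expressed from the paternal allele, held 30.4, 25.8, 21.7 and 31.1 RPKM in AdGFP and 134, 99.8, 74.8 and 93.3 RPKM in AdCRE (log2 fold change 1.85, SE 0.08, adjusted p = 0.000106). Nnat, neuronatin, held 28.7, 24.2, 10.7 and 82.3 RPKM against 69.5, 78.1, 43.1 and 248 RPKM (log2 fold change 1.62, SE 0.10, adjusted p = 0.000197). Peg10 did not overlap between groups, while Nnat did because replicate 4 was high under both viruses. Sgce, the neighbour of Peg10, changed by -0.21. Dlk1 (0.86), Rian (0.81) and Mest (0.34) rose. Of 20 germline genes only Tcfl5, a testis transcription factor, was tested, at 0.0122, 0.107, 0.0372 and 0.0163 RPKM and 1.08, 1.3, 1.72 and 0.664 RPKM, and it passed the limit through AdCRE alone.

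Interferon-stimulated genes, which cells switch on through IRF factors at the ISRE element after sensing virus or nucleic acid, rose in 10 of 18 tested members and fell in 2, Ifit2 and Samhd1 (median 0.29). The Samhd1 call was lost without replicate 1 or 4 (adjusted p up to 0.1). Oasl1, an oligoadenylate synthetase-like protein, rose by 2.29, 1.24, 1.72 and 2.20 in the 4 pairs (log2 fold change 1.86, SE 0.17, adjusted p = 0.000625). Isg15, the ubiquitin-like modifier, held 1.02, 1.68, 0.675 and 0.546 RPKM against 4.82, 2.9, 3.35 and 4.61 RPKM (log2 fold change 1.61, SE 0.23, adjusted p = 0.00265). Ifit1, which binds foreign RNA caps, held 0.131, 0.254, 0.177 and 0.155 RPKM against 2.49, 1.28, 1.71 and 2.55 RPKM (log2 fold change 1.85). The groups did not overlap for Oasl1 and Isg15, and the levels of these 3 genes stayed low in AdCRE. Ifit1 passed the limit through AdCRE alone, so its groups could not overlap. Rsad2, viperin (1.17), and Irf7 (0.71) rose too. Of the 35 genes on that list 17 were not tested.

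The promoters of Ifit1, Isg15 and Rsad2 are shown because they carry the core letters of the ISRE, a pair of GAAA runs with 2 bases between them, on either strand, in capitals.
Ifit1: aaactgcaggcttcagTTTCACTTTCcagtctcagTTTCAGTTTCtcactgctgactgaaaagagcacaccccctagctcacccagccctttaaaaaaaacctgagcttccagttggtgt
Isg15: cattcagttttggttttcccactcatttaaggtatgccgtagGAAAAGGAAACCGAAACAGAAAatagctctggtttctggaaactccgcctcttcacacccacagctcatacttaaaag
Rsad2: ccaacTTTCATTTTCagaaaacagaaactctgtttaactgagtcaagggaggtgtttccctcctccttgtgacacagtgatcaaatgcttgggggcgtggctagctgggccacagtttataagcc
They lie at chr19:34640769-34640888, plus strand, at chr4:156200819-156200938, minus strand and at chr12:26456453-26456577, minus strand, on the same RefSeq build. Ifit1 holds 2 matches, Isg15 3 that overlap each other, and Rsad2 1. Of all 27025 genes with an entry, 3.99% hold these letters in the window. With entries for 24 of its 35 genes (68.6%) the interferon list is below the 80% needed, and its share is void.

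Among genes of antigen presentation, 3 of 10 rose (30%, all genes 17.5%). They were B2m, the light chain of MHC class I (0.39), H2-D1 (0.52) and Tapbp (0.35). The Tapbp call was lost without replicate 2 or 4 (adjusted p up to 0.0683). B2m held 239, 119, 111 and 81.6 RPKM against 315, 154, 145 and 108 RPKM, with pair differences of 0.40, 0.37, 0.39 and 0.41. The rise was even, and the level followed the replicate number. Icam1, an adhesion receptor induced by NF-kappaB, was at 0.167, 0.116, 0.108 and 0.223 RPKM and 0.598, 1.05, 0.789 and 1.24 RPKM (log2 fold change 1.10). It passed the level limit through AdCRE alone. Nfkb1 fell (-0.52). Of the cytokine and NF-kappaB list 4 rose (33.3%, all genes 17.5%) and 3 fell (25%, all genes 18.7%) of 12. The others that rose were Il1rn, Lif and Nfkbia, and the others that fell were Cxcl12 and Vcam1. Calls were lost for Lif without replicate 1, 3 or 4 (adjusted p up to 0.0846), for Nfkbia without 2 or 4 (up to 0.0739), and for Cxcl12 (0.0867) and Vcam1 (0.0551) without 4, and Cxcl12 moved from -0.32 to -0.21 without replicate 1.

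Apart from Chd4, the 2 largest falls by the rule for named genes were in granzymes, serine proteases known from cytotoxic lymphocytes. Gzmd held 10.6, 10.3, 18.3 and 12 RPKM in AdGFP and 1.61, 2.52, 3.61 and 2.28 RPKM in AdCRE (log2 fold change -2.15, SE 0.09, adjusted p = 5.89e-05). Gzme held 46.2, 41.7, 54.6 and 36 RPKM against 15.3, 19, 24.2 and 14.7 RPKM (log2 fold change -1.27, SE 0.07, adjusted p = 0.00016). Neither overlapped between groups. The other 7 granzymes were under the level limit, and as close copies these genes may share reads. Snord100, a small nucleolar RNA, fell unevenly by pair differences of -0.51, -1.57, -0.47 and -1.36 (log2 fold change -0.98, SE 0.19, adjusted p = 0.00778). Lce1g, a late cornified envelope gene, had differences of -1.93, -0.56, -0.72 and -0.68 (-0.97), the largest in replicate 1. Pcsk1, a prohormone convertase, fell in each pair by a similar amount (-0.85).

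Markers of other cell types were examined as lists. The summed pericyte markers were 90.6 to 153 RPKM in AdGFP and 261 to 509 RPKM in AdCRE, and 5 of 6 tested members of 9 rose, Mcam among them. Rgs5, given above for the size of its rise, alone held 46.4 to 104 RPKM of the AdGFP sums and 176 to 403 RPKM of the AdCRE sums. Notch3, also counted in the Notch list, is another member. Mcam, the adhesion protein CD146, held 9.71, 24.2, 19.4 and 15.9 RPKM in AdGFP and 23.4, 49.8, 44.5 and 37.8 RPKM in AdCRE (log2 fold change 1.16, SE 0.05, adjusted p = 5.89e-05), with an overlap from replicate 1 alone. Abcc9 rose by 0.29, a call lost without any 1 of the 4 replicates (adjusted p up to 0.0713), Anpep rose by 0.43, lost without replicate 2, 3 or 4 (up to 0.124) and 0.26 without replicate 2, and Cspg4, NG2, did not pass (0.17). The summed fibroblast markers were 45.9 to 82.2 RPKM in AdGFP and 80.9 to 123 RPKM in AdCRE, of which Gsn alone held 31.1 to 63.9 RPKM and 44.1 to 86.4 RPKM. There Ly6a, Thy1, Gsn (0.62) and Smoc2 (0.35) rose and Cd34 fell (-1.02), while Pdgfra, the defining marker of fibro-adipogenic progenitors, lay at 0.324 to 0.51 RPKM over the 8 libraries and Dpt and Mfap5 at 0 in all.

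The summed leukocyte markers were 7.58 to 13.1 RPKM in AdGFP and 22.1 to 34.6 RPKM in AdCRE, without overlap. Laptm5, also named for the size of its rise, alone held 2.86 to 8.93 RPKM of the AdGFP sums and 11.5 to 24.2 RPKM of the AdCRE sums. Of the 18 on the list 5 were tested. Among these, Laptm5 (1.62), Gpsm3 (1.92), Arhgap45 (1.64) and Cd68 (0.81) rose and Cd14 did not pass (-0.12). Laptm5, a lysosomal protein of haematopoietic cells, held 3.39, 5.17, 8.93 and 2.86 RPKM in AdGFP and 11.5, 16.1, 24.2 and 12.1 RPKM in AdCRE (log2 fold change 1.62, SE 0.08, adjusted p = 0.000134). Arhgap45, a GTPase-activating protein, held 0.069, 0.0755, 0.0964 and 0.184 RPKM against 1.41, 1.39, 1.63 and 1.14 RPKM and passed the level limit through AdCRE alone. Ptprc was at or near 0 as above, and Adgre1, C1qa, C1qb and S100a9 were listed at 0 in all 8 libraries. Endothelial markers summed to 3.92 to 5.82 RPKM and 5.34 to 8.51 RPKM, with Tie1 and Emcn listed at 0. Of the 4 tested, Tek (0.87) and Egfl7 (0.31, lost without replicate 1, 2 or 4, adjusted p up to 0.111) rose. Pecam1 (0.14, adjusted p = 0.329) and Eng (0.19, adjusted p = 0.124) did not pass. Schwann cell markers summed to 6.72 to 20.3 RPKM and 7.91 to 24.1 RPKM. Of the 3 tested, Ngfr (0.82) and Erbb3 (0.23) rose, while Mbp was lower in all 4 pairs and did not pass (-0.20, adjusted p = 0.172). Sox10 did not exceed 0.0142 RPKM. Of the tenocyte markers 0 of 2 rose. The part of other cells in the pericyte, fibroblast, endothelial and Schwann sums was not tested.

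Epithelial genes were few, 6 tested of 15, and 4 rose. Krt18, a simple epithelial keratin, held 15.9, 2.78, 1.91 and 7.13 RPKM in AdGFP and 31, 10.7, 7.31 and 11 RPKM in AdCRE (log2 fold change 1.25, SE 0.19, adjusted p = 0.00323). Cldn4, a tight junction protein, held 25, 2.54, 2.27 and 13.9 RPKM against 37.3, 6.74, 5.89 and 38.4 RPKM (log2 fold change 1.12, SE 0.13, adjusted p = 0.00116). Both were far higher in replicates 1 and 4 than in 2 and 3 in AdGFP. Krt19 (0.82) and Cldn3 (0.84) were the other 2. Of the adipogenic genes 9 of 12 rose (median 0.41) and Pnpla2 fell (-0.24), a call lost without replicate 1, 3 or 4 (adjusted p up to 0.105). Lpl, lipoprotein lipase, held 19.7, 14.2, 7.08 and 19.8 RPKM against 39.1, 30.6, 16.8 and 36.8 RPKM (log2 fold change 1.03, SE 0.06, adjusted p = 0.00016), with groups that overlapped. Pparg, the adipogenic nuclear receptor, rose by 0.72. The fat cell markers Adipoq, Fabp4 and Plin1 lay under the level limit, at no more than 0.0601 RPKM in any library. Of the cardiac genes 2 of 4 rose, of the smooth muscle genes 2 of 6, and of the chondrogenic and osteogenic genes 2 of 7 rose and 2 fell, with medians of 0.14, 0.16 and 0.21. The sign of the last turned when genes had to reach 1 RPKM. Beside these counts, 17.5% of all genes rose and 18.7% fell.

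Of 24 collagens and matrix proteins 7 rose and 7 fell, 29.2% each beside 17.5% and 18.7% of all genes (median -0.01, a sign that turned without replicate 4). Col1a1, of fibrillar collagen I, was at 0.0412, 0.0708, 0.0478 and 0.0904 RPKM and 0.714, 1.93, 1.36 and 1.12 RPKM (log2 fold change 1.62). It passed the level limit through AdCRE alone. Nid1, of basement membrane, held 79.6, 57.4, 51.6 and 82.6 RPKM against 157, 107, 90.7 and 138 RPKM (log2 fold change 0.85, SE 0.05, adjusted p = 0.00016). The groups did not overlap for Nid1, and those of Col1a1 could not, given how it passed the limit. Thbs2 rose (0.81) and Thbs1, its paralogue, fell (-0.48). Of the matrix proteases and inhibitors 11 of 20 rose and 3 fell. Mmp2, gelatinase A, held 5.14, 7.72, 5.53 and 19 RPKM against 10.6, 16.8, 10.6 and 33.6 RPKM (log2 fold change 0.93, SE 0.05, adjusted p = 0.00016). Htra3, a secreted serine protease, held 6.44, 10.1, 6.17 and 8.15 RPKM against 14.8, 17.4, 12.3 and 19.4 RPKM (log2 fold change 1.01, SE 0.08, adjusted p = 0.000349). Timp1, an inhibitor of metalloproteases, fell by 0.69. Mmp2 stood highest in replicate 4 under both viruses, and Htra3 did not overlap between groups.

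Lysosome and autophagy genes rose in 19 of 32 members and fell in 1, Arsb (-0.66), with a median of 0.21. Grn, progranulin, held 60.8, 23.3, 25.5 and 21.5 RPKM in AdGFP and 95.1, 35.7, 34.4 and 28.8 RPKM in AdCRE (log2 fold change 0.52, SE 0.05, adjusted p = 0.00073). Ctsb, cathepsin B, rose by 0.40. Replicate 1 was the highest library for both genes under both viruses. Of the Nrf2 targets 11 of 19 rose (57.9%, all genes 17.5%) and 2 fell (10.5%, all genes 18.7%), with a median of 0.17. Ephx1, microsomal epoxide hydrolase, held 20.2, 12.7, 10.7 and 14.9 RPKM against 45.5, 30.5, 30.3 and 33.4 RPKM (log2 fold change 1.24, SE 0.06, adjusted p = 0.000118), without overlap. Gstm2 (0.67), Gstm1 (0.57) and Blvrb (0.44), conjugating and biliverdin-reducing enzymes, rose less, and the Gstm genes are near copies of each other.

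Signal-responsive genes changed modestly. Of the immediate early genes 10 of 21 rose (47.6%, all genes 17.5%) and 3 fell (14.3%, all genes 18.7%). Ier5 (0.85) and Egr3 (0.65) were the most changed. Of the TGF-beta and BMP genes 8 of 22 rose (36.4%) and 3 fell (13.6%). Tgfb2 was at 0.70 and Cyr61, a matricellular target of YAP, at -0.61. Of the heat shock genes 6 of 16 rose (37.5%) and 2 fell (12.5%), Hspd1 (-0.29) and Hspe1 (-0.20), the mitochondrial chaperonin pair. Hspe1 lost its call without replicate 2 or 4 (adjusted p up to 0.0632). Of the ATF4 and unfolded protein genes 7 of 23 rose (30.4%) and 4 fell (17.4%, near the share of all genes). Dnajb9 was at 0.46 and Phgdh, of serine synthesis, at -0.42.

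Among energy genes, those of oxidative phosphorylation were called less often than all genes tested, of which 17.5% rose and 18.7% fell. Of the nuclear genes for oxidative phosphorylation 1 of 36 rose, Ndufa1 (0.28), and 1 fell, Ndufa8 (-0.14), 2.78% each. Their median was -0.02, near the -0.01 of all genes. The Ndufa8 call was lost without any 1 of the replicates (adjusted p up to 0.142). Of the 13 genes of the mitochondrial genome none passed under limma, and their pair medians of -0.36, 0.29, -0.08 and 0.25 had both signs, as had the median without replicate 2 or 4. Of the glycolysis genes 5 of 18 rose (27.8%) and 2 fell (11.1%), with a median of -0.02. Slc2a1, the glucose transporter GLUT1, was at 0.38 and Eno1, enolase, at -0.32.

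**Figure D4:**
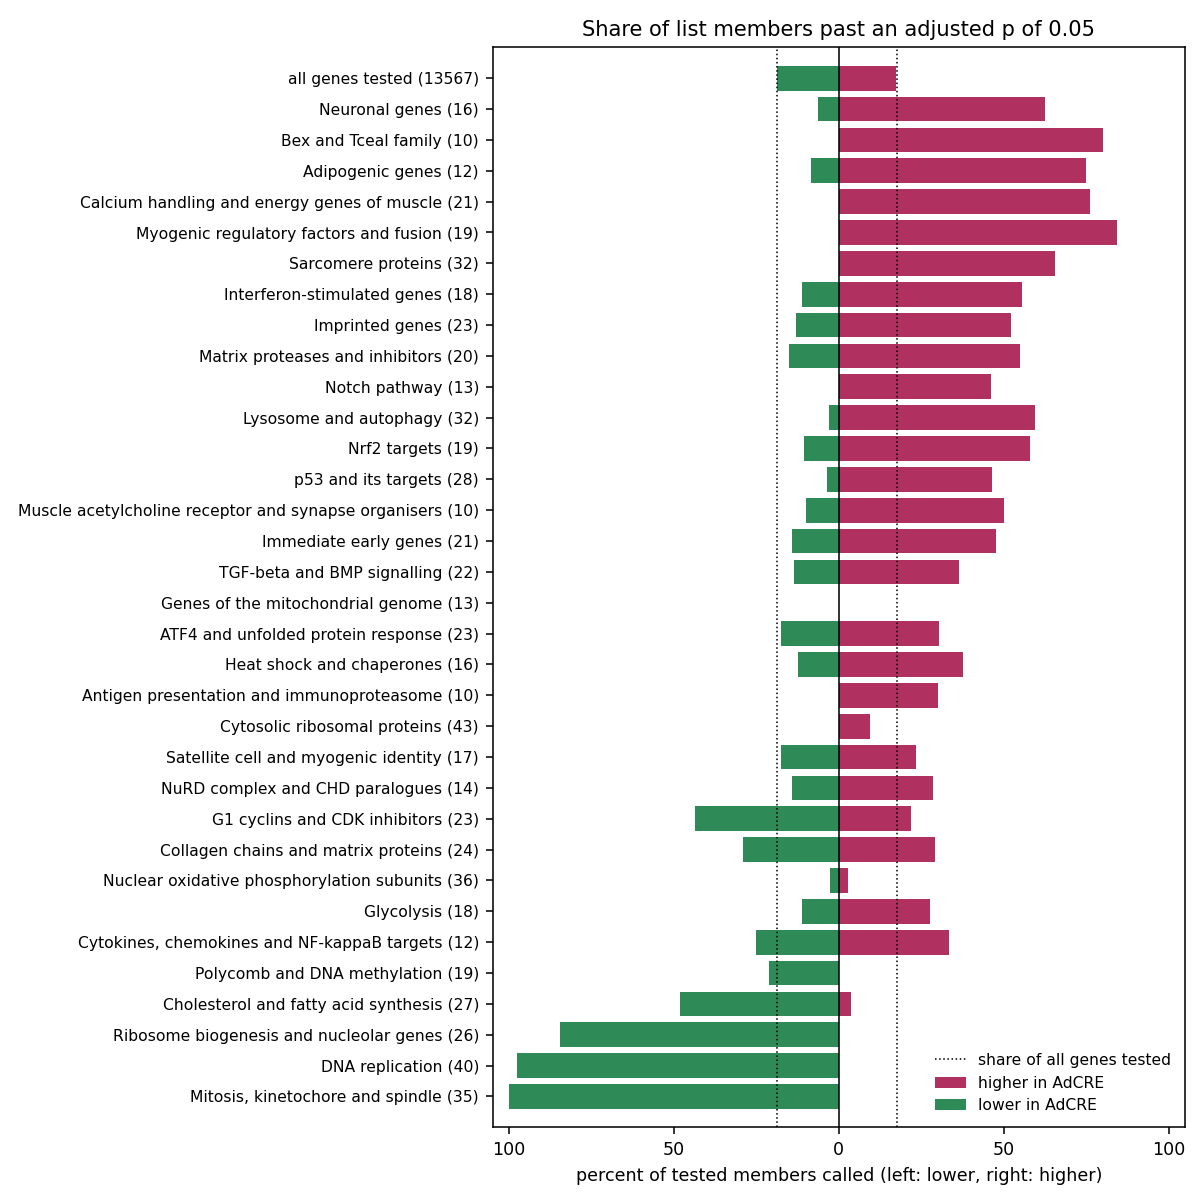
Percent of the tested members of each list (number in brackets) that were higher (right) or lower (left) in AdCRE at an adjusted p under 0.05, with dotted lines at the 17.5% and 18.7% of all genes tested. The replication, mitosis and ribosome biogenesis bars reach far left of the dotted line, and the muscle, Bex and Tceal, adipogenic and neuronal bars far right of it.

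The changes were set beside those of sorted satellite cells, Chd4dPax7ER against Chd4fl/fl, 4 samples each, 3 days after injury. Those cells were sorted for alpha7-integrin and CD34 and against SCA1 and CD45, a gate that acts on the products of Ly6a, Ptprc and Cd34 among the genes named here. Only fold changes were compared, since the tables were normalized separately. In the sorted cells 3548 of 13344 genes passed (26.6%). The difference between the 2 changes was tested for 11941 genes by combined standard errors, and 1749 (14.6%) had an adjusted p under 0.05.

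Among the genes with the largest culture changes, the difference passed for Peg10, which rose by 1.85 in culture and was at -0.57 in sorted cells, where it did not pass (adjusted p = 0.065, adjusted p of the difference = 4.72e-05). Chd4 changed by -1.84 in culture and -1.16 in sorted cells (adjusted p of the difference = 0.00723), so the transcript was reduced further in culture. Uchl1 (1.63 and 3.07), Ndrg4 (1.37 and 2.13) and Ehd3 (1.03 and 2.17) rose in both, by more in sorted cells, with an adjusted p of the difference of 0.00555, 0.00351 and 0.0154. Snord100 fell by 0.98 in culture and was at 0.15 in sorted cells, where it did not pass (adjusted p = 0.501, adjusted p of the difference = 0.00727).

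A few genes passed in both settings with opposite signs and a difference past the test. In what follows, a single value in parentheses, or the last of 3, is the adjusted p of the difference. Htra3 changed by 1.01 in culture and -1.15 in sorted cells (adjusted p of the difference = 0.000143). Krt18 changed by 1.25 and -1.74 (0.000404), Hey1 by 0.70 and -0.49 (0.000151), and Mest by 0.34 and -1.91 (0.000679). Over the genome 1772 genes passed in both settings, of which 952 rose in both, 718 fell in both, 55 rose in culture and fell in sorted cells, and 47 fell in culture and rose in sorted cells. Lpl rose by 1.03 in culture and was at -0.18 in sorted cells, where it did not pass, and the difference passed (2.38e-05). Notch3 (0.97 against 0.04, 0.00541) and Rsad2 (1.17 against -0.14, 0.00467) rose in culture by more than their change in sorted cells, where neither passed. Cdkn1a (0.44 against 1.23, 0.00227) rose more in sorted cells. Icam1 was at 1.10 in culture and 3.98 in sorted cells, Tcfl5 at 1.60 and 5.21, and Ifit1 at 1.85 and 0.26. These 3 passed the level limit in culture through AdCRE alone, and the added 0.5 compresses their culture change, so their values are set side by side without comparing sizes. For Mki67 (-0.98 and -0.72), Rgs5 (2.06 and 1.69) and Ly6a (2.13 and 0.77) the difference did not pass (0.494, 0.705 and 0.0521), which does not show that they changed alike.

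**Figure D5:**
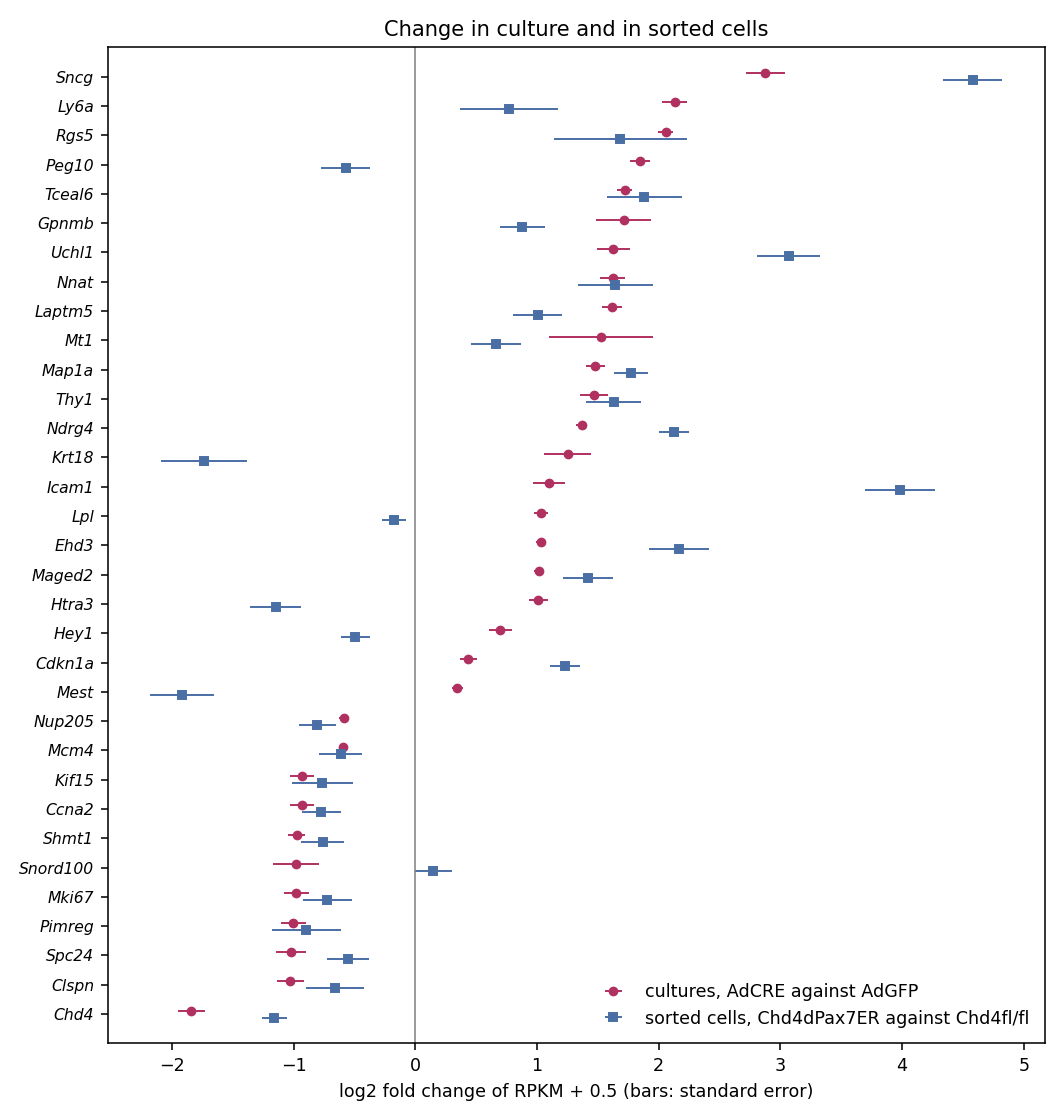
Log2 fold change of RPKM + 0.5 with its standard error in the cultures (circles, AdCRE against AdGFP) and in sorted cells (squares, Chd4dPax7ER against Chd4fl/fl), for the genes with the largest or most certain culture changes and 8 further genes, where both were tested. Peg10, Krt18, Htra3, Hey1 and Mest are among the genes that lie on opposite sides of 0 in the 2 settings. Of these, Peg10 did not pass in sorted cells.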

How the data were processed

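RNA-seq of 8 samples of cultured myoblasts and, for 1 comparison, 8 samples of sorted satellite cells was used. The authors deposited RPKM values per gene. The submitters' processing notes name FastQC 0.11.8, cutadapt 1.18 and HISAT2 2.1.0 for the series, with no role or order. The counter, gene lengths and strand setting are nowhere stated in the sources used, so close copies and overlapping genes can share reads. The deposited RPKM hold no read totals, so absolute depth is unknown, and relative depth was read from the steps between low values.

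From these, log2(RPKM + 0.5) was computed and fitted with limma 3.58.1 in R 4.3.3, with a variance trend, virus as the effect and replicate number as a block, on genes with at least 0.5 RPKM in at least 4 libraries. The sorted cells were fitted alone without a block. The pairing comes from the replicate numbers in the labels, and every same-numbered pair of libraries deviated together (correlations of 0.711 to 0.856). The fit was tested on simulated data. Alternatives changed the block, pseudocount, level limit, scaling, variance model and pairs used.

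Named genes were the 12 largest rises and falls with the same sign in all 4 pairs and a mean of at least 5 RPKM, the 6 smallest p in each direction, up to 4 members with the smallest p in each of 46 gene lists, a set of anchor genes, and the 6 genes that varied most between pairs. Other genes named, among them members that complete a short count and those whose promoters are printed, were chosen after their values were seen. The lists and members were chosen with earlier results of these data known. Motifs were matched on both strands of RefSeq promoters of build GRCm38.p6. ATAC-seq was not analysed here, and some genes are not reported here.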

Additional observations from a re-analysis of the deposited data

Results flagged for a closer look

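Among the named genes, 46 of 366 groups of 4 libraries held 1 library whose gap to the others was large for the range of its group, where chance flags about 1 in 20 groups. Replicate 1 was that library 13 times in AdGFP and 15 times in AdCRE, and replicate 4 was it 7 and 7 times. For AdCRE replicate 1, the values were 109 RPKM for Cdkn2b, 396 RPKM for Ctsb, 177 RPKM for Gpnmb, 95.1 RPKM for Grn, 263 RPKM for Gstm1, 12.5 RPKM for Il1rn, 21.8 RPKM for Kif1a, 31 RPKM for Krt18, 3.32 RPKM for Lif, 1374 RPKM for Mt1, 5.99 RPKM for Oasl1, 15 RPKM for Plk3, 11.3 RPKM for Pparg, 2.5 RPKM for Rsad2 and 119 RPKM for Scd2. In AdGFP replicate 1 the values were 9.1 RPKM for Anpep, 99.2 RPKM for Cdkn2b, 310.2 RPKM for Ctsb, 9.49 RPKM for Egr3, 110.2 RPKM for Gpnmb, 60.8 RPKM for Grn, 63.9 RPKM for Gsn, 184 RPKM for Gstm1, 10.5 RPKM for Kif1a, 29.6 RPKM for Lce1g, 9.17 RPKM for Plk3, 122 RPKM for Scd2 and 11 RPKM for Tapbp. AdCRE replicate 2 stood apart for Rian at 6.64 RPKM. In AdGFP replicate 2 the values were 24.8 RPKM for Gatad2a, 3.8 RPKM for Rian and 5.73 RPKM for Snrpn. For AdCRE replicate 4, the values were 39.8 RPKM for Mta1, 21.1 RPKM for Myf5, 10.9 RPKM for Nfkb1, 248 RPKM for Nnat, 11.2 RPKM for Notch1, 1.53 RPKM for Rps13-ps1 and 33.4 RPKM for Trp53. In AdGFP replicate 4 the values were 17.4 RPKM for Agrn, 29.3 RPKM for Bmi1, 30.4 RPKM for Myf5, 41.3 RPKM for Nop56, 10.1 RPKM for Notch1, 0.303 RPKM for Sncg and 32.8 RPKM for Snord100. Ctsb, Gpnmb, Grn, Gstm1, Kif1a, Plk3, Scd2 and Cdkn2b stood apart in replicate 1 under both viruses, and Myf5 and Notch1 in replicate 4 under both.

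The change in culture minus the change in sorted cells, on the log2 scale, passed the test of the difference itself for 56 of the 169 named genes tested in both settings. Many of these genes were named for their change in culture. This difference was -2.88 for Icam1, -3.61 for Tcfl5, -1.32 for Bex2, 1.59 for Ifit1, 1.30 for Rsad2, 1.28 for Ngfr, -1.42 for Gpsm3, -2.18 for Ache, -1.25 for Rian, -1.25 for Cspg4, -1.35 for Abcc9, 1.19 for Hey1, -1.06 for Cd34, -1.70 for Sncg, 1.21 for Pparg, -0.86 for Chaf1b, 0.52 for Cav1, 0.43 for Gatad2b, -1.44 for Uchl1, -0.76 for Ndrg4, -0.87 for Pnpla2, -1.13 for Snord100, 2.99 for Krt18, 2.16 for Htra3, -1.46 for Mmp2, -0.60 for Vcam1, -0.64 for Agrn, -1.14 for Ehd3, 1.74 for Lrp4, 0.37 for Bmi1, 1.21 for Lpl, 0.93 for Notch3, -3.08 for Casq1, -1.55 for Mcam, -0.56 for Cxcl12, -0.44 for Fasn, -0.84 for Trp53inp1, -1.55 for Pygm, -0.68 for Chd4, -0.29 for Eno1, 0.73 for Hes1, 2.42 for Peg10, -0.40 for Mdm2, -0.70 for Thbs1, -0.65 for Ncam1, -0.68 for Megf10, -1.54 for Tnnt1, -0.65 for B2m, -1.12 for Mymk, -0.84 for Des, -1.004 for Ccnd1, 2.26 for Mest, -0.79 for Cdkn1a, -0.59 for Timp1, -0.81 for Myod1 and -1.47 for Acta1. Icam1, Tcfl5, Bex2 and Ifit1 passed the level limit in culture through AdCRE alone, and the added 0.5 compresses their culture change, so the size of their differences is not read. Sncg (0.303 to 0.921 RPKM in AdGFP) and Gpsm3 (0.269 to 0.731 RPKM in AdGFP) also lay near the added 0.5. The size of their differences is not read either. Culture and sorted cells also differ in tissue state, growth conditions, the route of Chd4 deletion and the sort, and these cannot be told apart here.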

How the results depend on the processing

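The replicate block decided the calls most. With no replicate block, genes higher in AdCRE were 70 and genes lower in AdCRE 19, and 150 of 183 named genes no longer passed, with none reversed. With no replicate block, genes higher by at least 2-fold were 41 and genes lower by at least 2-fold 3. These were 212 and 46 with a pseudocount of 0.1, and 74 and 7 with a pseudocount of 1. With no filter on low values, genes lower in AdCRE were 1674. Leaving out 1 pair at a time gave 1555 to 1963 genes higher in AdCRE and 1602 to 2044 genes lower in AdCRE, with the fewest of both without replicate 4. It gave 122 to 135 genes higher by at least 2-fold and 20 to 23 genes lower by at least 2-fold. The other alternatives kept these 4 counts within 1.5 times. A sign turned for 4 named genes, none of which passed the test. Leaving out 1 pair moved Cd14 between -0.26 and 0.0509, Rps13-ps1 between -0.0189 and 0.0629, Ddx3y between -0.00857 and 0.0699, and Xist between -0.0568 and 0.0344. Rps13-ps1 was at -0.000299 under TPM scaling and -0.00202 under TPM scaling without mitochondrial genes, and Ddx3y at -0.0272 with a pseudocount of 0.1. The deposited values give no counts, so no counting interval could be set for low genes.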
